A study of Homo sapiens with 8 samples.

Results

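RNU4-1, RNU6ATAC and RNVU1-14 are 3 genes of small nuclear RNAs (snRNAs) of the spliceosome, and they are 3 of the 13471 genes in a table of hnRNP U immunoprecipitates (IP). They were chosen by name for levels in the IP far below those without IP, with their change between interphase and mitosis also in view. The values of the IP, of the difference between phases and of the phases themselves are therefore given as a description, with no test. The cells were hTERT-RPE1, an established human line from the retinal pigment epithelium that telomerase (hTERT) keeps dividing, so all groups share 1 line and its hTERT transgene. The 4 groups of 2 libraries were interphase without IP and interphase with an anti-hnRNP U IP, from cells held in 2 mM thymidine for 24 h, and mitosis without IP and mitosis with the IP. Mitotic cells had the same 24 h of thymidine, then 6 h without it and a night in STLC (S-trityl-L-cysteine, an inhibitor of the mitotic kinesin Eg5). Lysates were made with detergent and cleared by spinning, and the libraries were directional and depleted of ribosomal RNA. No library from an unspecific antibody enters these comparisons, so unspecific retention has no value here. The labels do not say whether replicates were separate cultures.

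The spliceosome cuts introns out of pre-mRNA and is built from RNA-protein particles, each around an snRNA. U1 pairs with the 5′ splice site, U4 carries U6 into the particle in a base-paired complex and holds it inactive, and U5 and U2 complete the major set. A rare class of introns uses a minor set in which U11, U12, U4atac and U6atac take the places of U1, U2, U4 and U6. U6atac pairs with the 5′ splice site of these introns and is known as a short-lived RNA. RNVU1-14 is one of the variant U1 genes, RNU4-1 one of the genes of U4, and RNU6ATAC the gene of U6atac. U1 and U4 are made by RNA polymerase II and bind a ring of Sm proteins at a uridine-rich Sm site, whereas U6 and U6atac are made by RNA polymerase III and bind LSm proteins at a 3′ uridine tail. hnRNP U, also called SAF-A, is a nuclear protein that binds RNA and DNA.

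The RNAs are shown because their short length and their close copies bear on how reads are assigned to them. The sequences are those of the annotated transcripts of GENCODE release 29 (GRCh38), 5′ to 3′, written with T. Capitals mark the segment that pairs with the 5′ splice site in the U1 RNAs and in U6atac, and the Sm site in the U1 RNAs and in U4. RNU1-1, a standard U1 gene, stands beside the variant for comparison.
RNVU1-14: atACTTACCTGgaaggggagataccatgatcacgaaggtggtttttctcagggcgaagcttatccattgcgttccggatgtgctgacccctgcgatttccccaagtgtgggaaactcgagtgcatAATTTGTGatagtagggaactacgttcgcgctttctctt
RNU1-1: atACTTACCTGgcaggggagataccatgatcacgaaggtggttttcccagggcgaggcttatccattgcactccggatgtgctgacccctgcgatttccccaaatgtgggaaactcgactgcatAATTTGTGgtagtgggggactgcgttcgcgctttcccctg
RNU4-1: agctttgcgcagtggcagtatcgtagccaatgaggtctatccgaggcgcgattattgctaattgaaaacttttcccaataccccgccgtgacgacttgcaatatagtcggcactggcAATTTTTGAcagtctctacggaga
RNU6ATAC: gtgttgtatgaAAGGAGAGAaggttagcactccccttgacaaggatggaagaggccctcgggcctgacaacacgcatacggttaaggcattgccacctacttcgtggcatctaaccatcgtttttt
The U1 segment ACTTACCTG starts at base 3 of RNVU1-14, as it does in RNU1-1. In a global alignment, 150 of 165 columns were identical between these RNAs, with 13 substitutions and 2 gap columns. The U6atac segment AAGGAGAGA starts at base 12, and the RNA ends in 6 T. Of 14012 annotated transcripts of at most 300 bases, 0.414% hold ACTTACCTG and 0.364% hold AAGGAGAGA in the transcript's own direction. The Sm sites AATTTGTG and AATTTTTGA are held by 2.47% and 0.478%.

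RNVU1-14 lies on the plus strand at chr1:145281116-145281279 and spans 164 bases. An exon of the lincRNA gene AC245014.3 overlaps it on the same strand, so reads of that RNA could add to its value. RNU4-1 lies on the minus strand at chr12:120293097-120293237, spans 141 bases and overlaps no other annotated gene. RNU6ATAC lies on the minus strand at chr9:134164439-134164564, spans 126 bases and also overlaps no other annotated gene. The intervals in the table exceed these spans by 0 to 4 bases, and no other row of the table overlaps any of them. RNU4-1 and its neighbour RNU4-2 are identical in 137 of 141 bases, so reads of U4 can fit both genes, and how such reads were treated is not given in the sources used here.

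Levels are in FPKM, which divides the fragments of a gene by its length and by the size of the library. Library totals are not given. The lowest FPKM values are multiples of a small step, and the steps shared by 40 to 101 of the 1426 genes under 1 FPKM gave relative depths between 0.639 and 1.19, both in the mitotic IP, with the first interphase library without IP set to 1. Of 5 mitotic marker genes all had a mean at least 2.31 times as high in mitosis without IP as in interphase, and 4 S phase markers ran from 0.00450 to 0.702 times. Of 8 retinal pigment epithelium markers, 3 had a row in the table. PMEL stood at 0.114, MITF at 9.59 and OTX2 at 8.54 FPKM in interphase without IP.

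After scaling by relative depth, the values of RNU6ATAC and RNVU1-14 were whole multiples of 1 step in all 8 libraries, with a largest deviation of 2.0e-04 of a step. If a step is 1 fragment, the RNVU1-14 row rests on 108 and 99 fragments in interphase without IP, 3 and 3 in the interphase IP, 23 and 8 in mitosis without IP, and 1 and 1 in the mitotic IP. The RNU6ATAC row rests on 554 and 111, 11 and 1, 117 and 62, and 4 and 1 fragments in the same order. In all, 12 of the 15 spliceosomal snRNA rows lay on such steps within 0.02 of a whole number, as did 73.4% of the genes under 1 FPKM. RNU4-1 is too abundant for its step to be resolved. With a step between those of RNU11 and RNU12, rows of 134 and 150 bases, its lowest library would hold 1078 to 1410 fragments and its highest 53771 to 70327. One fragment was worth 1.93 FPKM in RNU6ATAC and 0.926 FPKM in RNVU1-14, a ratio of 2.08 against a ratio of lengths of 1.30. FPKM of such short rows thus rose faster than the length fell, so levels of snRNAs of different length are not comparable by FPKM to that extent, while ratios of 1 row between libraries are not touched.

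The variant U1 RNA RNVU1-14 was far lower in the IP than without it, and lower in mitosis than in interphase. Its 2 libraries of interphase without IP read 99.96 and 109 FPKM, and those of the interphase IP 2.57 and 2.96 FPKM. Mitosis without IP read 24.7 and 6.83 FPKM, and the mitotic IP 1.45 and 0.779 FPKM. The groups thus ranked interphase without IP, mitosis without IP, interphase IP and mitotic IP, and no neighbours in this order overlapped. In each replicate the IP held 2.57% and 2.71% of the level without IP in interphase, and 5.86% and 11.4% in mitosis. On the log2(FPKM + 1) scale the IP effect was -4.81 for interphase and -2.77 for mitosis, each with a standard error (SE) of 0.44 from limma. The mitotic value is -3.61 with no pseudocount, an alternative chosen after seeing the data. It is -1.91 without the first mitotic library without IP and -3.62 without the second. The replicates were close in interphase and apart in mitosis without IP, where replicate 1 was 3.62 times replicate 2.

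The U4 RNA RNU4-1 was among the rows of highest FPKM and was lower in the IP in both phases, with no common direction between phases. Interphase without IP read 75767 and 75115 FPKM and the interphase IP 6035 and 1774 FPKM. Mitosis without IP read 96299 and 55568 FPKM and the mitotic IP 3806 and 1441 FPKM. It ranked 4 to 6 among all genes by FPKM in the 4 libraries without IP. There it made up 5.46% to 7.70% of the FPKM sum, and 0.379% to 1.73% in the IP libraries. As FPKM of short rows rose faster than length fell, this rank and share may be overstated against longer genes. The levels without IP overlapped between phases, as did the levels in the IP. The IP held 7.97% and 2.36% of the level without IP in interphase, and 3.95% and 2.59% in mitosis. The log2 IP effect was -4.53 for interphase and -4.96 for mitosis. Each had an SE of 1.68, which limma sets in part from other rows of similar level. The interphase value ran from -5.41 to -3.64 when 1 library was left out. RNU4-2, the other U4 gene, stood at a steady distance: RNU4-1 was 0.561 to 0.613 times RNU4-2 over the 8 libraries, and the shared sequence allows that reads were divided between them.

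U6atac, the RNU6ATAC row, kept the lowest share of the 3 in the interphase IP, and its replicates lay far apart. Interphase without IP read 1069 and 255 FPKM and the interphase IP 19.7 and 2.06 FPKM. Mitosis without IP read 262 and 110 FPKM and the mitotic IP 12.1 and 1.62 FPKM. The replicate 1 library was the higher one in each group, by 4.19 times in interphase without IP, 9.54 times in the interphase IP, 2.37 times in mitosis without IP and 7.44 times in the mitotic IP. The levels with and without IP did not overlap in either phase, while those of interphase and mitosis overlapped both without IP and in the IP. The IP held 1.84% and 0.807% of the level without IP in interphase, and 4.61% and 1.47% in mitosis. These shares rest on 11 and 1 fragments in the interphase IP and on 4 and 1 in the mitotic IP. The log2 IP effect was -6.04 for interphase and -4.87 for mitosis, each with an SE of 1.05.

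**Figure D1:**
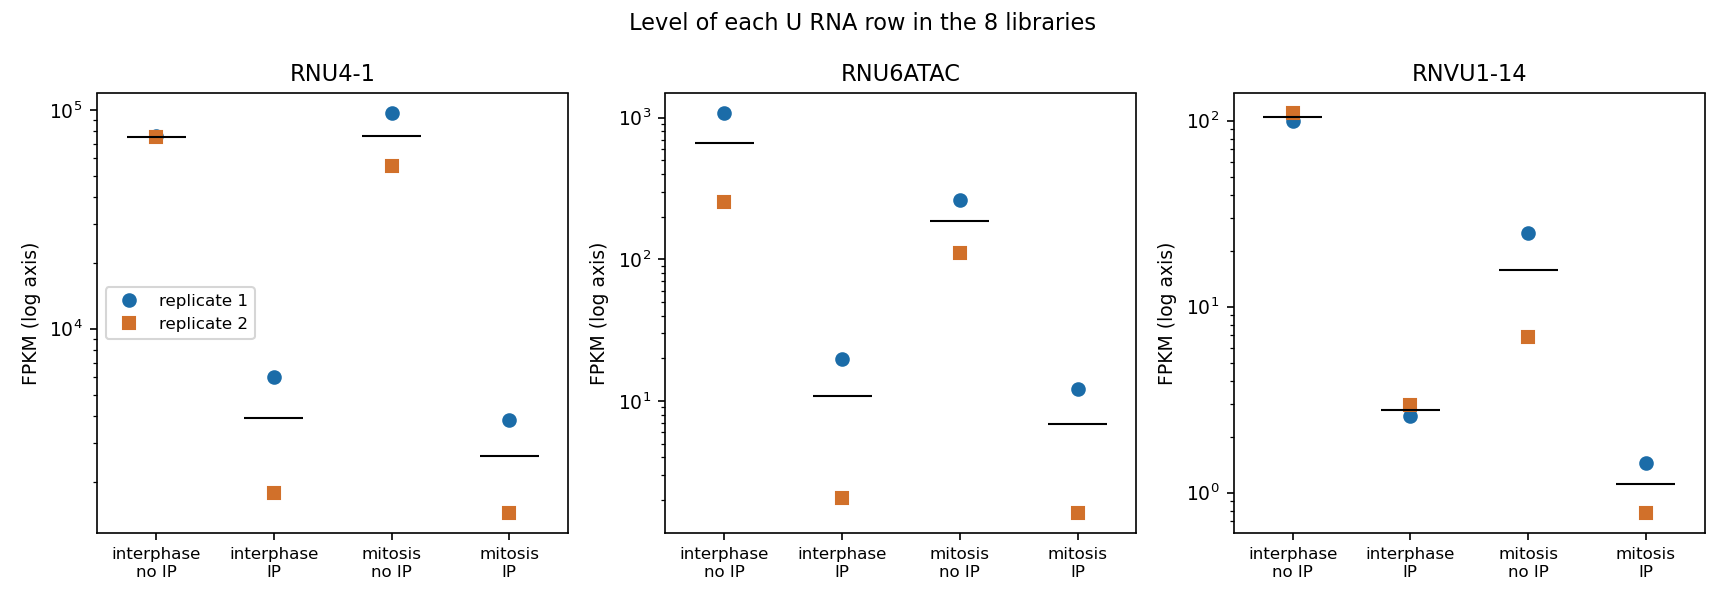
FPKM on a log axis of RNU4-1, RNU6ATAC and RNVU1-14 in the 8 libraries, with circles for replicate 1, squares for replicate 2 and a line at the mean of each group of 2. Both IP groups lie below both groups without IP in each panel, and the replicates of RNU6ATAC lie farthest apart in each group but mitosis without IP, where those of RNVU1-14 do.

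All 3 genes were lower in the IP with no overlap between groups in both phases, where 42.8% of all genes were so in interphase and 40.1% in mitosis. Since the genes were chosen on this contrast, nothing is read from that count. The wider family consists of 12 other spliceosomal snRNA rows, which were not among the chosen genes. They are the U1 copies RNU1-13P and RNVU1-19, RNU2-2P of the U2 family, RNU4-2, 5 genes of U5, and RNU11, RNU12 and RNU4ATAC of the minor set. This list too was drawn up with earlier results of these data known. RNU4-2 can share reads with the chosen RNU4-1, so its values are not separate from those of RNU4-1. Limma called 10 of the 12 lower in the interphase IP at an adjusted p below 0.05, against 37.0% of all genes, and 0 higher. Their median log2 effect was -3.66, and the median of all genes was 0.02. In the mitotic IP 9 of the 12 were called lower, against 31.7% of all genes, with a median of -3.15 beside 0.01, and 4 without the first mitotic library without IP or without the second mitotic IP library. The uncalled rows in interphase were RNU2-2P (-4.26, SE 2.65, limma adjusted p 0.174) and RNU4-2 (-4.57, SE 2.43, limma adjusted p 0.117), the rows of the highest level. Their SE draws on a prior variance that follows level as well as on their own replicates. RNVU1-19 was the further uncalled row in mitosis (-3.21, SE 1.40, limma adjusted p 0.0724). With the prior variance not tied to level, an alternative chosen after seeing the data, 12 were called lower in interphase and 10 in mitosis. Among genes with a mean of at least 1 FPKM, the numbers were 12 and 11. After quantile normalization 7 were called lower in interphase and 3 in mitosis.

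The share of the level kept in the IP varied within the family. In interphase it ran from 5.96% for RNU5F-1 to 27.2% for RNU12 among the 12 rows in replicate 1, with a median of 14.3%, and from 2.36% for RNU4-2 to 12.2% for RNU12 in replicate 2, with a median of 4.30%. RNU6ATAC and RNVU1-14 lay below the lowest of these in replicate 1, and RNU6ATAC alone lay below in replicate 2. RNU4-1 lay close to RNU4-2, at 7.97% beside 7.50% and at 2.36% beside 2.36%. RNU12, the minor counterpart of U2, kept the highest share in both phases, with 47.0% and 32.0% in mitosis. RNU11, the minor counterpart of U1, kept 15.7% and 4.41% in interphase and 29.8% and 28.0% in mitosis. RNU4ATAC, the gene of the partner RNA of U6atac, kept 10.0% and 2.56% in interphase and 9.50% and 2.31% in mitosis, and its interval in the table spans 311702 bases. One fragment of that row was worth 1.72 FPKM, between the 1.93 FPKM of RNU6ATAC and the 1.54 FPKM of RNU11. The interval of RNU5F-1 spans 50871 bases, and 1 fragment was worth 2.43 FPKM there, beside 2.37 FPKM in RNU5A-1. No difference between these rows was tested. The 7SK gene RN7SK, a polymerase III RNA outside the spliceosome and 1 of 5 listed other nuclear snRNAs with a row, kept 2.94% and 3.22% in interphase and 1.97% and 2.44% in mitosis, and limma called it lower in both phases (adjusted p 0.0185 and 0.0144). These calls were lost after quantile normalization and when any 1 of the libraries of the contrast was left out.

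**Figure D2:**
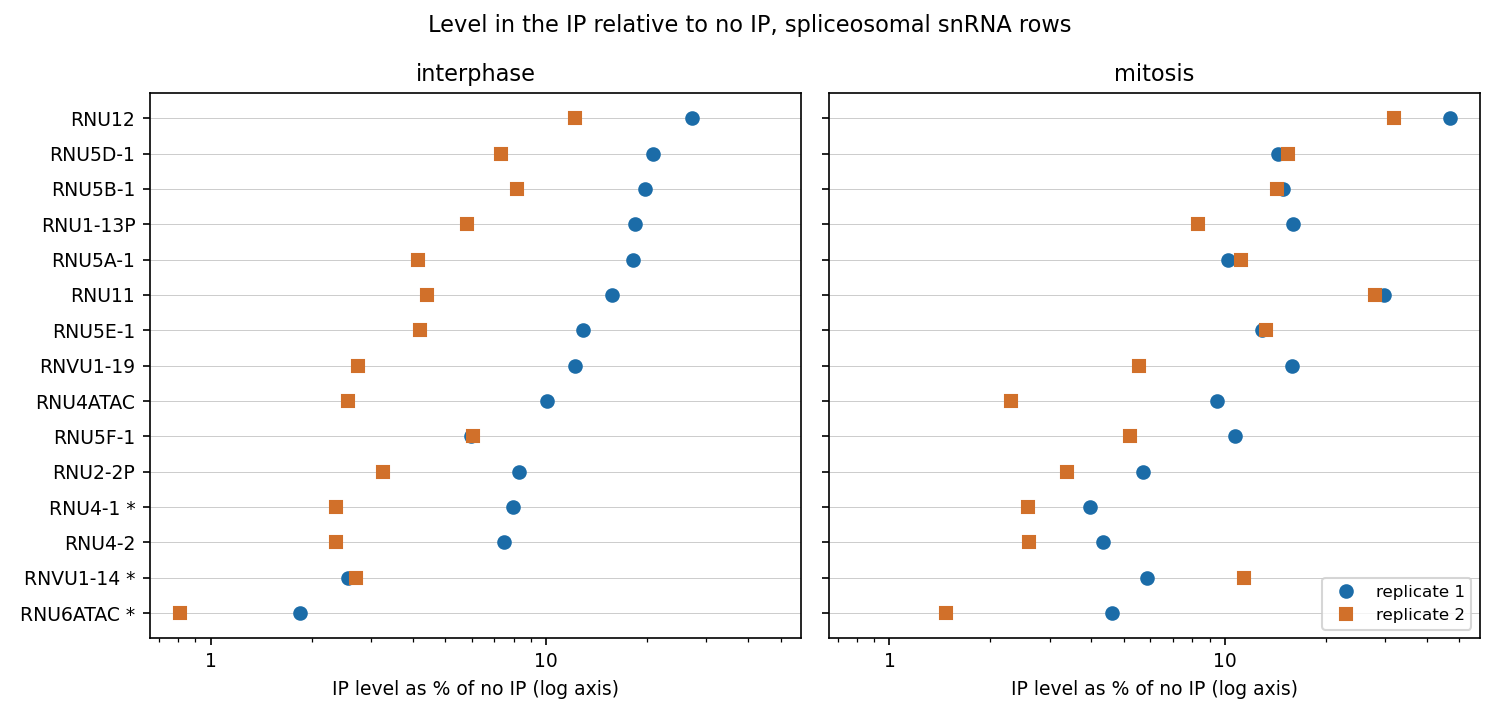
Level in the IP as a percent of the level without IP, on a log axis, for the 15 spliceosomal snRNA rows in interphase and mitosis, with replicate 1 as circles and replicate 2 as squares; asterisks mark RNU4-1, RNU6ATAC and RNVU1-14. RNU6ATAC lies lowest in interphase at 1.84% and 0.807%, which rest on 11 and 1 fragments in the IP, and RNU12 highest in both phases.

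Replicate 1 exceeded replicate 2 in each of the 12 other snRNA rows in the interphase IP, in mitosis without IP and in the mitotic IP. In interphase without IP the ratio ran from 0.856 to 2.14, with a median of 1.32, and was 1.01 for RNU4-1 and 0.915 for RNVU1-14. In the interphase IP, replicate 1 was 3.40 times replicate 2 for RNU4-1 and a median of 3.95 times over the 12 other rows, ranging from 1.59 to 8.68 times, but 0.868 times for RNVU1-14. Over all genes the median of this ratio was 0.991. Over the 34 rows whose interval spans at most 300 bases, which include most of this family, it was 2.15. The median of these short rows was 2.25 in the mitotic IP, 1.61 in mitosis without IP and 0.936 in interphase without IP. In the mitotic IP the ratio was 2.64 for RNU4-1, 7.44 for RNU6ATAC and 1.86 for RNVU1-14, with a median of 2.58 over the 12 rows and 1.01 over all genes. In mitosis without IP it was 1.73 for RNU4-1 and a median of 1.99 over the 12 rows. The part of this replicate difference in the values above was not tested.

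The share kept in the IP rose from interphase to mitosis in both replicates for RNU6ATAC and RNVU1-14, but not for RNU4-1. For RNVU1-14 it was 2.28 and 4.20 times as high in mitosis, and for RNU6ATAC 2.51 and 1.82 times. No row holds 0, so with steps of 1 fragment no library can show less than 1 fragment. RNVU1-14 stood at this floor in both mitotic IP libraries. Its least possible mitotic shares, 5.86% and 11.4%, exceed 2.57% and 2.71% in interphase, so its rise was fixed by its levels without IP. RNU6ATAC stood at the floor in the second IP library of both phases. Its 1.82 times thus carries only the levels without IP and the depths. For RNU4-1 the share was 0.496 times in replicate 1 and 1.10 times in replicate 2, so the replicates went opposite ways. The log2 difference between the effects of the IP was 2.04 (SE 0.62) for RNVU1-14, 1.17 (SE 1.48) for RNU6ATAC and -0.44 (SE 2.37) for RNU4-1. For RNVU1-14 the difference became 1.63 with no pseudocount, 1.19 without the second mitotic library without IP and 2.90 without the first. For RNU6ATAC it became -0.20 without the second interphase IP library, which holds 1 fragment, 0.14 without the first interphase library without IP, and 0.01 without the first mitotic IP library. For RNU4-1 it became 0.44 without the first interphase IP library. A share higher in mitosis in both replicates was seen in 45.4% of all genes. Among the 12 other rows RNU11, RNU12 and RNVU1-19 had this pattern, RNU4ATAC had the opposite one, seen in 37.5% of all genes, and 8 were mixed. Limma called 0 of the 12 for the difference, against 47.1% of all genes, and 0 had an unadjusted p below 0.05. With a replicate block in the fit, 1 of the 12, RNU11, was called higher. Without the first interphase IP library or without the second mitotic IP library, 1 was called higher.

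Few fragments stand behind these shares. The exact 95% interval (Clopper-Pearson, for the ratio of the 2 counts) on the share of RNVU1-14 was 0.522% to 7.72% and 0.550% to 8.17% in interphase, and 0.142% to 36.1% and 0.257% to 85.0% in mitosis. For RNU6ATAC it was 0.912% to 3.32% and 0.0202% to 4.59% in interphase, and 1.24% to 12.1% and 0.0367% to 8.50% in mitosis. These intervals describe the precision of each share and test nothing. They cover counting error only, since amplified fragments are not independent molecules.

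**Figure D3:**
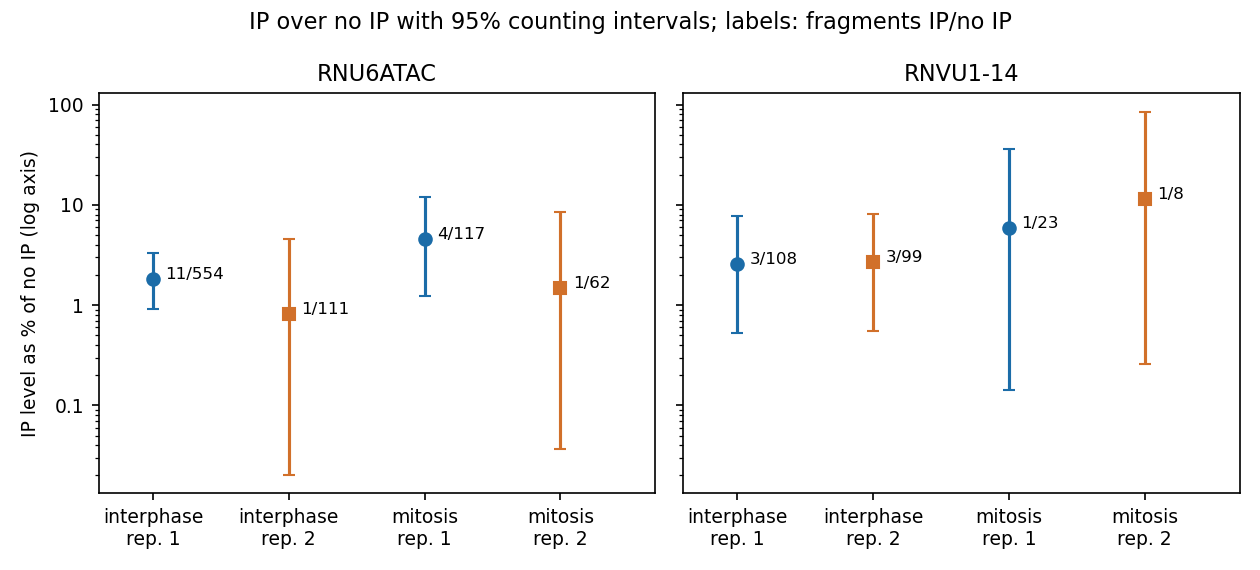
Level in the IP as a percent of the level without IP, on a log axis, for RNU6ATAC and RNVU1-14 in each phase and replicate, with exact 95% counting intervals; labels give the whole-fragment steps in the IP and without IP. The widest intervals are those of the smallest numbers of fragments, and the mitotic values of RNVU1-14 rest on 1 fragment in each IP library.

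Without IP, the levels of RNVU1-14 and RNU6ATAC were lower in mitosis than in interphase in both replicates, and that of RNU4-1 was not. The counting intervals given for changes between phases cover counting error only and test no change. RNVU1-14 stood in mitosis at 24.7% and 6.26% of its interphase level, with counting intervals of 15.0% to 39.1% and 2.63% to 12.8%. Its groups did not overlap, which held in this direction for 39.4% of all genes, and its log2 change was -2.89 (SE 0.44), with -3.75 and -2.04 when the first or the second mitotic library was left out. RNU6ATAC stood at 24.5% and 43.3%, with intervals of 19.9% to 30.0% and 31.2% to 59.5%. Its groups overlapped by the narrow margin of 262 FPKM in the first mitotic library against 255 FPKM in the second interphase library, and its log2 change was -1.61 (SE 1.05), or -0.58 without the first interphase library. RNU4-1 stood at 127% in replicate 1 and 74.0% in replicate 2, a log2 change of -0.04 (SE 1.67). The 12 other rows stood at a median of 120% in replicate 1 and 64.2% in replicate 2, with the lowest at 54.8% and 30.5%. RNU6ATAC lay below all 12 in replicate 1, and RNVU1-14 lay below all 12 in both replicates. Limma called 0 of the 12 for this change, against 51.7% of all genes, and 0 had an unadjusted p below 0.05. With a replicate block in the fit, 1 of the 12 was called lower. Beside its partner RNA, RNU6ATAC read 2.32 and 1.19 times RNU4ATAC in interphase without IP, and 0.463 and 0.881 times in mitosis without IP.

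In the IP itself, RNU6ATAC and RNVU1-14 rested on 1 to 11 fragments in a library. RNVU1-14 stood in the mitotic IP at 56.4% and 26.3% of its level in the interphase IP, with counting intervals reaching from 1.07% to 702% and from 0.501% to 327%. Its groups did not overlap, as was so in this direction for 34.6% of all genes. RNU6ATAC stood at 61.5% and 78.9%, with counting intervals of 14.3% to 208% and 1.0% to 6190%. RNU4-1 stood at 63.1% and 81.2%, lower in both replicates but with overlapping groups. The 12 other rows had medians of 98.3% and 138%, and RNU11 stood highest at 254% and 384%. Limma called 0 of the 12, against 61.4% of all genes, and RNU11 alone had an unadjusted p below 0.05. With a replicate block in the fit, 2 of the 12, RNU11 and RNU12, were called higher. Without the first interphase IP library or without the second mitotic IP library, 2 were called higher. Without the second interphase IP library or without the first mitotic IP library, 1 was called lower.

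**Figure D4:**
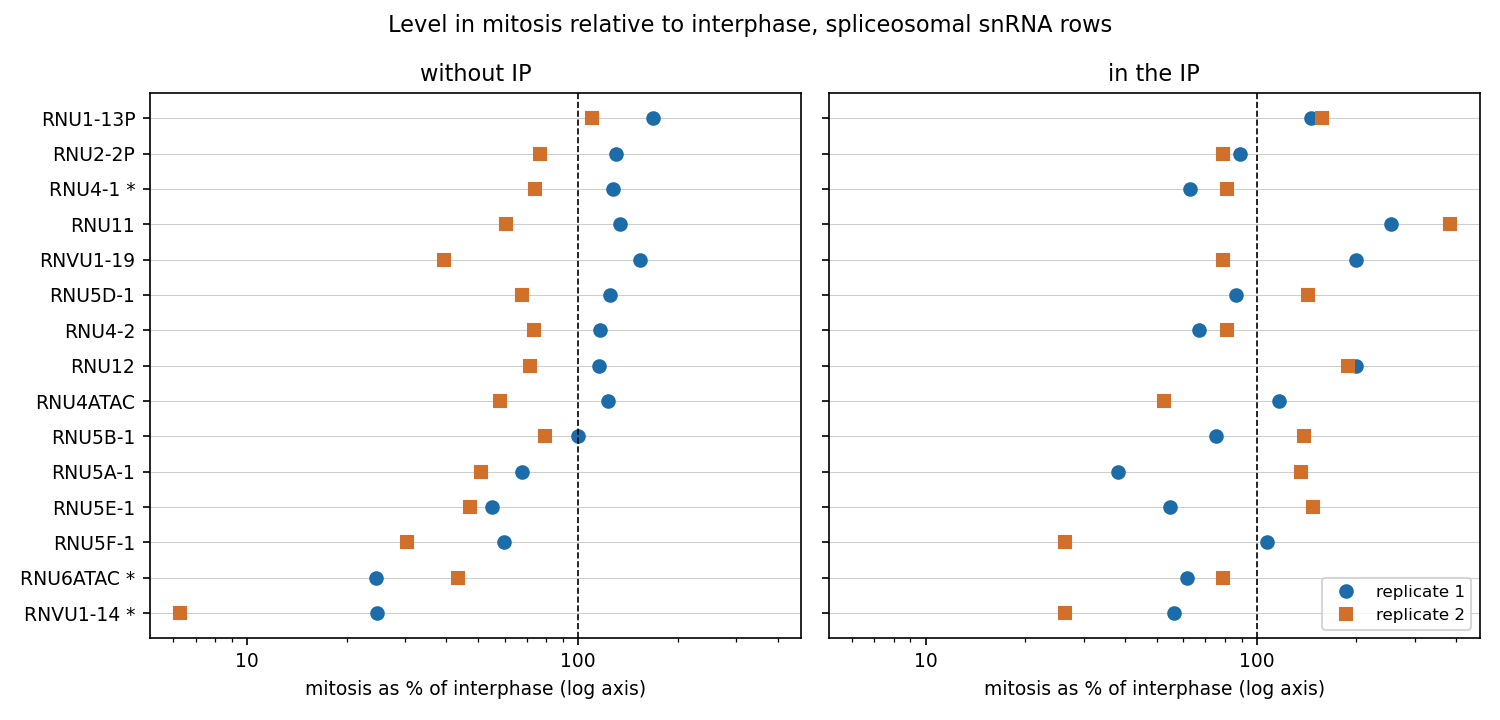
Level in mitosis as a percent of that in interphase, on a log axis with a dashed line at 100%, for the 15 spliceosomal snRNA rows without IP and in the IP; circles are replicate 1, squares replicate 2, and asterisks mark RNU4-1, RNU6ATAC and RNVU1-14. Without IP, RNVU1-14 at 24.7% and 6.26% lies lowest on average, and RNU4-1 lies on both sides of the line.

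Short rows, many of them of the snRNA family, had a lower median in the IP than all genes. The table held 34 rows whose interval spans at most 300 bases. They included the 3 genes and every other spliceosomal snRNA row but RNU4ATAC and RNU5F-1. The median log2 effect was -1.39 in interphase and -1.59 in mitosis, beside 0.02 and 0.01 over all genes. These medians include the family and so do not describe short rows in general. Rows outside the family went both ways, from -8.296 for RNY1 to 1.495 for SNORD114-10 in interphase. In mitosis they ran from -7.16 for RNY1 to 1.405 for SNORD116-14. Counted from the lowest of the 34, RNU6ATAC had rank 2 in interphase, RNVU1-14 rank 3 and RNU4-1 rank 5. In mitosis RNU4-1 had rank 2, RNU6ATAC rank 4 and RNVU1-14 rank 12. For mitosis against interphase without IP, RNVU1-14 was the lowest of the 34 and RNU6ATAC the next, at a median log2 change of 0.44, which became -0.0036 with rows of at most 200 bases.

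**Figure D5:**
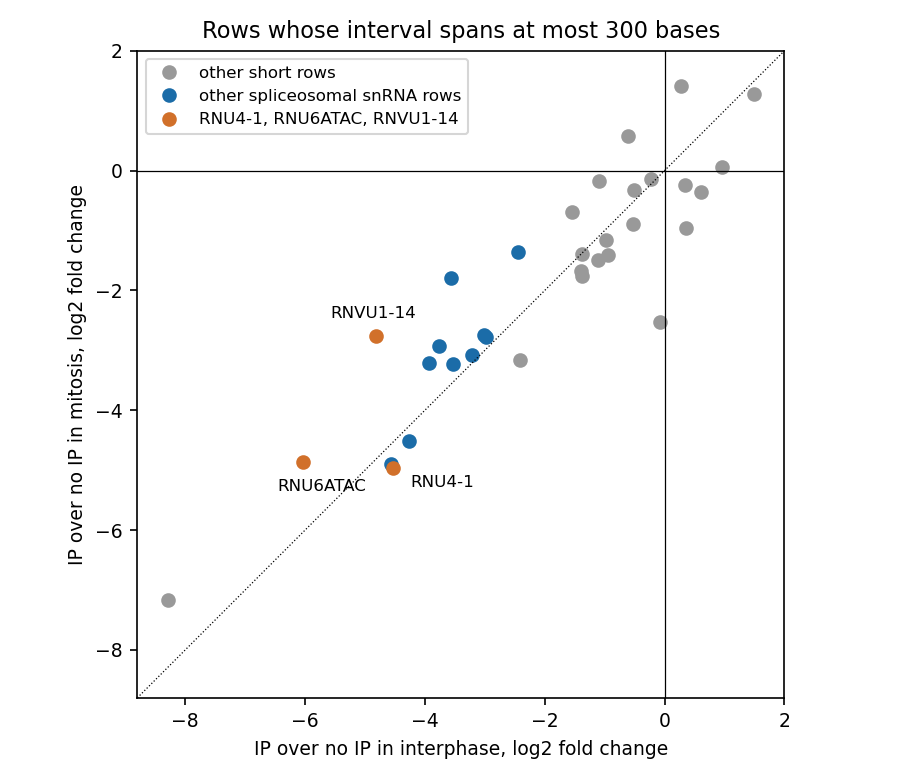
Log2 fold change of the IP in mitosis against that in interphase for the 34 rows spanning at most 300 bases, with RNU4-1, RNU6ATAC and RNVU1-14 in orange, other spliceosomal snRNA rows in blue and other rows in grey; the dotted line marks equal effects. RNVU1-14 lies above the line at -4.81 and -2.77, and RNU4-1 lies near it beside RNU4-2.

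The genes most like each RNA over the 8 libraries were found by the Euclidean distance between log2(FPKM + 1) profiles, each centred on its mean. RNU4-1 was nearest to RNU4-2 at a distance of 0.113, then RNU2-2P at 0.766 and SCARNA16, a small Cajal body RNA with an interval of 128458 bases in the table, at 1.45, where the median over all genes was 7.00. RNU6ATAC was nearest to RNU4-2 at 2.52, then to RNU4-1 at 2.56 and RNU4ATAC at 2.68, against a median of 8.51. RNVU1-14 was nearest to SNHG19, a snoRNA host gene, at 1.89, then to DPM3 at 2.17, which encodes a subunit of dolichol-phosphate mannose synthase, and to GABARAP at 2.31, which encodes an autophagy protein, against a median of 6.34. The SNHG19 libraries of interphase read 236 and 240.0 FPKM without IP and 21.3 and 14.8 FPKM with it. Those of mitosis read 46.4 and 31.6 FPKM without IP and 14.3 and 9.13 FPKM with it.

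The mRNAs of proteins that bind, make or assemble these RNAs were read from 8 lists of 84 genes, each of which had a row. Over the 84, limma called 39 lower and 22 higher in the interphase IP, against 37.0% and 37.6% of all genes, and 40 lower and 23 higher in the mitotic IP, against 31.7% and 32.8%. The median log2 effects were -0.34 and -0.31. Of the 8 Sm protein genes 6 fell and 0 rose in the interphase IP, and 5 fell and 1 rose in mitosis. SNRPD2, an Sm ring protein, had the largest fall, from 294 to 28.4 FPKM in interphase (log2 effect -3.33, SE 0.14). Of the 7 genes of the LSm ring that U6 and U6atac carry, 5 fell and 1 rose in the interphase IP, and 6 fell and 1 rose in mitosis. LSM7 fell from 84.0 to 6.76 FPKM and LSM8 rose from 4.21 to 9.18 FPKM in interphase. All 3 genes of U1 proteins fell in both phases, with SNRPC falling from 40.1 to 7.33 FPKM in interphase. Of the 6 genes of proteins on U4/U6 and U4atac/U6atac, 3 fell in interphase and 4 in mitosis, and none rose. PRPF31, a protein that binds U4, fell from 24.2 to 5.86 FPKM in interphase.

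The minor spliceosome genes went both ways, with 7 of 14 lower and 4 higher in the interphase IP, and 5 lower and 3 higher in mitosis. ZMAT5, a protein of the U11/U12 particle, fell from 13.9 to 2.19 FPKM, and RNPC3, which binds U12, rose from 0.837 to 2.52 FPKM in interphase. Among 19 genes of snRNA transcription and 3′ processing, 5 fell and 7 rose in interphase, and 9 fell and 10 rose in mitosis. SNAPC2, a subunit of the factor that binds snRNA promoters, fell from 6.42 to 0.668 FPKM, and INTS6 of the Integrator complex rose from 7.75 to 22.2 FPKM in interphase. Among 21 genes of export, assembly and import, 7 fell and 8 rose in interphase, and 5 fell and 7 rose in mitosis. GEMIN7 of the SMN complex fell from 11.3 to 1.41 FPKM and COIL, the gene of coilin, rose from 6.88 to 17.3 FPKM, while SMN1 and SMN2 are near-identical copies whose values are uncertain. Of 7 genes of U6 maturation, 3 fell and 2 rose in interphase, and 4 fell and 1 rose in mitosis. MEPCE, a capping enzyme of 7SK, fell from 14.8 to 5.48 FPKM, and METTL16, which methylates U6, rose from 4.45 to 9.36 FPKM in interphase. The limma adjusted p of the 13 named genes in interphase was at most 1.21e-04. These genes were named as called genes with the largest change in this contrast, so a low p followed from the choice. Without IP, 27 of the 84 were higher and 17 lower in mitosis, against 26.2% and 25.5% of all genes, but only 17 were higher with the first interphase library without IP left out, and 11 lower with either the second of these or the first mitotic library without IP left out. In the mitotic against the interphase IP, 34 of the 84 were higher and 18 lower, against 35.8% and 25.6% of all genes.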

How the data were processed

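RNA of hTERT-RPE1 cells was sequenced with and without an hnRNP U IP in 2 phases. The gene table holds FPKM values that the authors deposited, 1 column for each library, on build hg38 (GRCh38). TopHat and StringTie are named in the submitters' processing notes, without their roles or versions, and the treatment of shared reads is not given in the sources used here. The ratio columns deposited by the authors are quotients of FPKM columns of the same replicate number and matched recomputed quotients. No row holds 0. A second table, of lncRNA features on another build, was not used here.

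Limma (version 3.58.1 in R 4.3.3, trended prior variance) was fitted to log2(FPKM + 1) of all 13471 genes and 8 libraries, with 1 coefficient for each of the 4 groups, no filter and 4 residual degrees of freedom. P-values were adjusted by Benjamini-Hochberg over all genes, with calls made at an adjusted p below 0.05. They and the SE draw on the spread between these libraries, which may be technical, and on a prior variance that follows level. For rows of the highest level the SE can exceed the spread of their own replicates. RN7SK had an SE of 1.60 for the interphase IP, while its replicate 1 was 0.839 to 1.08 times replicate 2 over the 4 groups. Fold changes on this scale understate changes of low genes. The procedure was also run on simulated data with known changes in a small part of the genes and independent noise. These data had far more genes called, so that run bears on no result here.

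The 3 genes and all lists were chosen with earlier results of these data known, so no p-value is given for the 3 genes. Named beside them are all other spliceosomal snRNA rows, RN7SK, the called gene with the largest rise and fall in the interphase IP in each protein list, and the 3 nearest profiles of each gene. Sequences and annotation are from GENCODE release 29. All 84 listed protein genes were matched by symbol or older symbol on the same chromosome. Alternatives were a pseudocount of 0.1 or none, a mean FPKM of at least 1, quantile normalization, median centring, a replicate block, an untrended prior and leaving out each library. The untrended prior and the lack of a pseudocount were chosen after seeing the data.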

Additional observations from a re-analysis of the deposited data

Results flagged for a closer look

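The effect of the IP differed between mitosis and interphase, by limma's direct test of the difference, in 9 of the named protein genes. The log2 fold change in mitosis minus that in interphase was 2.23 for GEMIN7, 1.66 for ZMAT5, 1.56 for MEPCE, 1.49 for SNRPD2, 1.42 for SNAPC2, 1.41 for SNRPC and 1.21 for LSM7, genes that fell in the interphase IP. It was -0.81 for RNPC3 and -0.55 for LSM8, genes that rose there. The limma adjusted p ran from 5.3e-05 for GEMIN7 to 0.0215 for LSM8. The same test called 47.1% of all genes, and these 9 were named for a large effect in interphase, on which the difference itself depends. Of the 12 other spliceosomal snRNA rows, the lowest adjusted p belonged to RNU11 (1.78, SE 0.98, limma adjusted p 0.171) and RNU12 (1.08, SE 0.61, limma adjusted p 0.179).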

How the results depend on the processing

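A log2 value counts as moved when it changed by more than the SD of its 2 replicate values, and a number of calls when it changed by more than 1.5 times, so a value with wide replicates can shift far without counting. By this rule quantile normalization moved 5 of 42 values and numbers. The log2 IP effect of RNU4-1 became -0.93 in interphase and -2.16 in mitosis, that of RNVU1-14 in interphase became -4.65, the difference of RNU6ATAC between phases became 0.85, and 3 of the 12 other snRNA rows were called lower in the mitotic IP. The difference of RNU4-1 went from -0.44 to -1.23, within its SD. The interphase effect of RNVU1-14 became -5.19 with a pseudocount of 0.1, -5.24 with none and -4.68 with median centring. Median centring shifted the median of all genes by 0.12 (log2) in the interphase IP and by -0.11 for mitosis against interphase in the IP. With rows of at most 200 bases, the median change of short rows without IP was -0.0036. The filter on low values and the untrended prior changed numbers by less than 1.5 times: 12 snRNA rows were called lower in interphase under both in place of 10, and 11 and 10 in mitosis in place of 9. The cause of these shifts was not tested.

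With a replicate block, 1 of the 12 snRNA rows, RNU11, was called higher for the difference between phases, 1 lower in mitosis without IP and 2, RNU11 and RNU12, higher in the mitotic against the interphase IP, where the fit without it called 0. With 2 numbers the pairing cannot be shown. Deviations of same-numbered libraries correlated at 0.0883 to 0.528 over the group pairs.

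Leaving out 1 library at a time, the interphase IP effect ranged from -5.41 to -3.64 for RNU4-1, from -7.42 to -4.66 for RNU6ATAC and from -4.88 to -4.73 for RNVU1-14. The mitotic effect ranged from -5.67 to -4.26 for RNU4-1, from -6.03 to -3.71 for RNU6ATAC and from -3.62 to -1.91 for RNVU1-14, and 4 to 10 of the 12 snRNA rows were called lower. The difference between phases ranged from -1.32 to 0.44 for RNU4-1, from -0.20 to 2.55 for RNU6ATAC and from 1.19 to 2.90 for RNVU1-14, with 0 to 1 snRNA row called higher. Without IP, the phase change of RNU6ATAC ranged from -2.64 to -0.58 and that of RNVU1-14 from -3.75 to -2.04, and 17 to 30 protein genes were called higher and 11 to 17 lower. In the IP, 0 to 2 snRNA rows were called higher and 0 to 1 lower between phases. Where a library is left out, the lone library of its group is assumed to vary like the others. Values of RNVU1-14 in the mitotic IP and of RNU6ATAC in the second IP libraries rest on 1 fragment each.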
